A study of Mus musculus with 10 samples.

Results

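Lmbr1l was followed as a single gene across mice with 0, 1 or both copies of a deletion of the TAAR enhancers 1 and 2. It is 1 of the 24421 rows of the count table and 1 of the 17197 genes that passed the filter on low counts. The gene was selected on these same counts, because it had the smallest p of all genes tested between het and WT mice and ranked 14 between homo and WT mice, after the 12 Taar genes that were called and 1 other gene. Lmbr1l itself was not among the 12 genes called by edgeR between homo and WT, but it was among the 13 called by DESeq2 and among the 13 called by edgeR without WT-3. It was called between het and WT under no setting. All these calls rest on the values that the gene was chosen by, so they are no test of it. The fit without WT-3 also leaves out the WT library with the lowest level. The differences of Lmbr1l between genotypes are therefore given as a description, with values and errors and with no test. Tests are given for other genes only.

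RNA was extracted from whole MOE (main olfactory epithelium), the lining of the nasal cavity that holds the olfactory sensory neurons (OSNs), at postnatal day 14. WT mice carried the intact enhancers, het mice (TAAR enhancer 1and2 double knockout +/-) the deletion on 1 chromosome, and homo mice (-/-) the deletion on both, with 3 WT, 3 het and 4 homo libraries. The labels give the strain as C57BL/6, whereas the study's methods describe mice of mixed background and both sexes, and the deletion was kept as 1 germline line made by genome editing of enhancer 1 in zygotes of mice with 1 or both copies of enhancer 2 deleted. The deleted enhancers lie on chromosome 10 and Lmbr1l lies on chromosome 15.

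LMBR1L is a protein of the LMBR1-domain family that spans the membrane several times and was described as a receptor for lipocalins, small secreted proteins that carry hydrophobic ligands. In lymphocytes it is known to restrain canonical Wnt signalling. With a ubiquitin ligase complex that holds UBAC2 it favours the degradation of β-catenin and of the receptors Frizzled 6 and LRP6 at the endoplasmic reticulum (ER). In the nose, lipocalins such as the odorant-binding proteins are abundant products of glands, and Wnt signals act on the basal cells that renew the epithelium.

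In the annotation of mm10, Lmbr1l (ENSMUSG00000022999.15) occupies chr15:98903917-98918231 on the minus strand. It has 8 annotated transcripts, of which 1 is protein coding (Lmbr1l-201, 17 exons, 2304 bases), and 0 other genes overlap its span. The stretch just upstream of its annotated start is shown here because it places the gene whose transcript was counted. It is the minus strand of chr15:98918232-98918348 (GRCm38.p6, sequence from RefSeq), 117 bases with a GC content of 56.4%, and the capitals mark a GC box (GGGCGG) read from the other strand.
Lmbr1l upstream: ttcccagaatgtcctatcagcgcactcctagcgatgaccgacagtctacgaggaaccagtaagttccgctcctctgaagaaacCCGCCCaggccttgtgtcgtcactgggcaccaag
On either strand, GGGCGG was found in 12.1% of the stretches made of the first 117 bases of 27025 mouse promoter windows. In other genes these bases are the upstream end of the window and need not adjoin the annotated start. The shares therefore compare stretches at unlike positions. A CCAAT box (CCAAT, in 15.8% of the stretches), a TATA box (TATAAA, in 6.12%) and a TCF/LEF core (CTTTGA, in 7.53%) were not found in the letters of Lmbr1l.

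Depth and labels were checked once for all libraries. Total counts ranged from 21423861 to 27712948, and 19078 to 19477 genes had at least 1 count. The 14 olfactory Taar genes, which the enhancers serve, held 850 to 915 counts in WT, 738 to 862 in het and 2 to 5 in homo libraries, in the order that the genotype labels give. Markers of mature OSNs such as Omp (4480 ± 226 CPM in WT, SD, n = 3) were abundant, as the tissue label says. CPM here are library counts on a per-depth scale (each count divided by the TMM-scaled total). The labels name no batch or date. Counts of Y genes were found in replicate 1 of WT and of het and in replicates 2 and 3 of homo and were nearly absent elsewhere, so that each genotype held animals of both sexes. The labels do not tie the libraries to animals, and the study's text describes the mice of the 3 genotypes as littermates.

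Lmbr1l was read by 673 to 1514 counts per library, which is a middling level in CPM, not set per length: 37.6% of the genes tested had a higher mean CPM. In WT mice it stood at 56.8 CPM in WT-1, 56.8 CPM in WT-2 and 35.3 CPM in WT-3. In het mice it stood at 33.2, 30.8 and 35.4 CPM in replicates 1, 2 and 3. In homo mice it stood at 33.0, 30.5, 28.6 and 35.7 CPM in replicates 1 to 4. WT-1 and WT-2 were thus high and alike, and the other 8 libraries, WT-3 included, were low. The groups overlapped, because 2 of the 7 het and homo libraries (het-3 and homo-4) lay above WT-3.

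**Figure D1:**
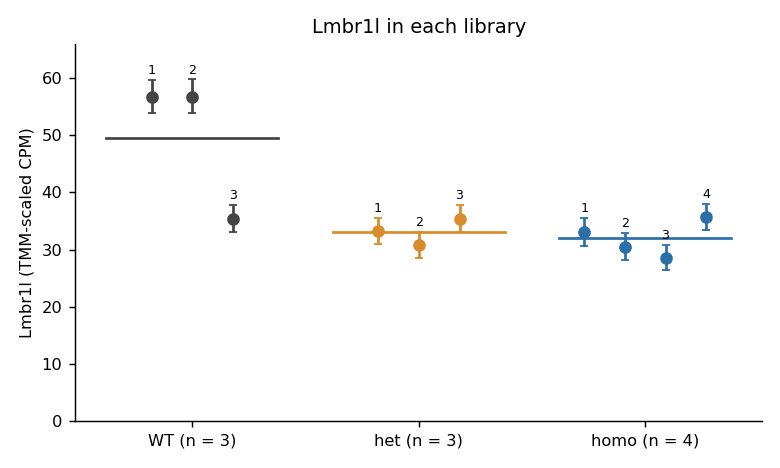
Lmbr1l level (TMM-scaled CPM, linear axis from 0) in each library, by genotype, with replicate numbers above the points. Bars on points are 95% Poisson intervals, which cover counting error only, and horizontal lines are group means (49.6 in WT, 33.1 in het, 32.0 in homo). WT-1 and WT-2 lie at 56.8 and every other library between 28.6 and 35.7.

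The raw counts and the authors' own scaling also put WT-1 and WT-2 on top. Lmbr1l had 1514, 1452 and 823 counts in the WT libraries, 753, 730 and 880 in the het libraries and 698, 677, 673 and 1014 in the homo libraries. The normalized values that the authors deposited were 1367, 1367 and 850.4 in WT, 795.5, 742.6 and 854 in het and 793.9, 732, 685.7 and 860.3 in homo libraries. WT-3 and homo-4 show how depth enters, since homo-4 had more counts than WT-3 (1014 against 823) and almost the same level once scaled (35.7 against 35.3 CPM).

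Counting error was small beside these gaps. The 95% Poisson interval ran from 54.0 to 59.7 CPM in WT-1, from 53.9 to 59.8 CPM in WT-2 and from 33.0 to 37.8 CPM in WT-3. Those of the het and homo libraries lay above 26.5 CPM (the lower bound of homo-3) and below the lower bounds of WT-1 and WT-2. The interval of WT-3 therefore did not meet those of WT-1 and WT-2, while it overlapped those of het-3 and homo-4 almost fully. These intervals hold counting error alone, since the libraries carried no molecular identifiers and reads can be copies of 1 molecule.

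Sorted from high to low, the libraries fell into a pair at the top and a run with small steps. WT-1 stood 1.59-fold above the next library, homo-4. Each later step, from homo-4 through het-3, WT-3, het-1, homo-1, het-2 and homo-2 to homo-3, was at most 1.07-fold. Within that run the 3 genotypes were mixed.

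By genotype, Lmbr1l measured 49.6 ± 12.4 CPM in WT (SD, n = 3), 33.1 ± 2.3 CPM in het (SD, n = 3) and 32.0 ± 3.1 CPM in homo mice (SD, n = 4). The het mean was 66.7% and the homo mean 64.5% of the WT mean. The order was therefore WT, het, homo, but het and homo lay within each other's spread, and WT had a coefficient of variation of 25% against 6.95% in het and 9.69% in homo. The difference between the means of WT and of the other genotypes came with the widest spread among the WT libraries.

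In the fit across all genes, Lmbr1l was lower by 0.64 on the log2 scale in homo than in WT mice (SE 0.14, a ratio of 64.4%) and by 0.58 in het than in WT mice (SE 0.15, 66.7%). These are the values it was chosen by. Between homo and het mice the difference was -0.05 (SE 0.14, 96.5%), which put Lmbr1l at rank 12020 of 17197 by p. The level in mice with 1 deleted copy was thus near that in mice with 2, and the comparisons share their libraries, so that the 3 differences are not independent. In these bulk samples, fewer cells that express the gene and less RNA per cell cannot be told apart.

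The size of these differences depended on which WT libraries were included. WT-3 stood at 62.2% of the mean of WT-1 and WT-2 (a log2 difference of -0.68), at 107% of the het mean and at 111% of the homo mean. Without WT-3 the log2 difference was -0.83 between homo and WT and -0.78 between het and WT. Without WT-1 these were -0.53 and -0.48, and without WT-2 again -0.53 and -0.48. Leaving out a het or a homo library kept the difference between -0.70 and -0.59 for homo against WT and between -0.63 and -0.54 for het against WT. Every one of the 10 fits that left out 1 library gave a lower level in het and homo than in WT mice. That direction was set beforehand, because WT-1 or WT-2 always remained in the WT group.

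**Figure D2:**
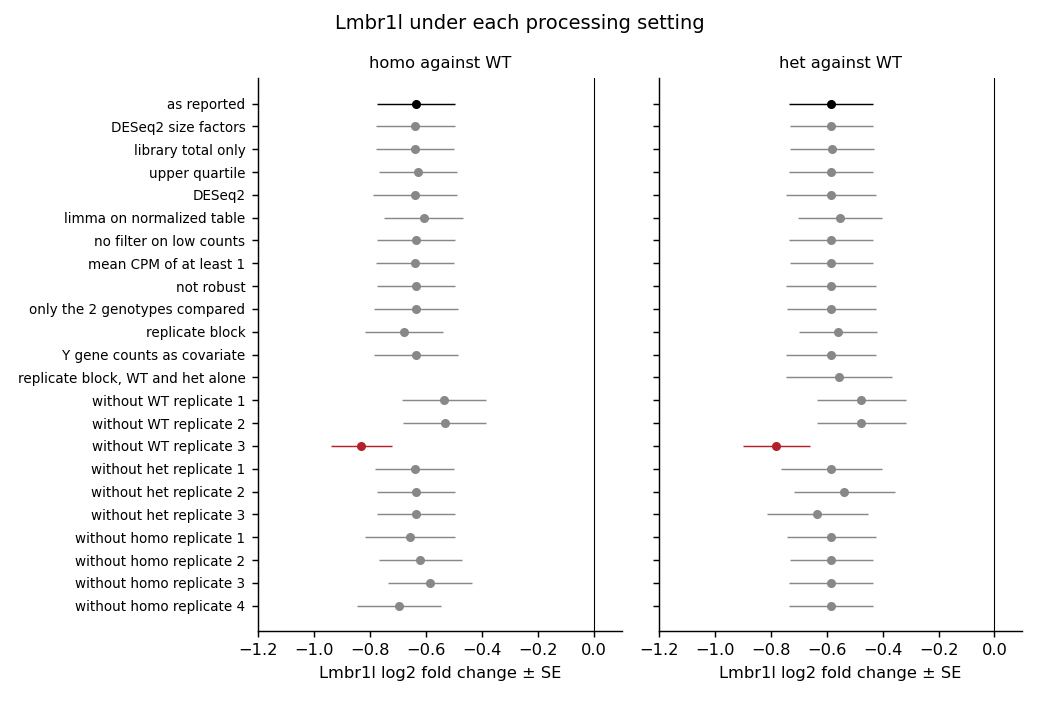
Log2 fold change of Lmbr1l (horizontal axis, with its SE as the bar) under each processing setting (vertical axis), for homo against WT and for het against WT. Black is the value as reported (-0.64 and -0.58), red the fit without WT-3 (-0.83 and -0.78), and every point lies below 0. The replicate block in WT and het alone gives no value for homo.

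Some other measures differed in WT-3 from WT-1 and WT-2. The summed level of 8 markers of immature OSNs (among them Gap43, a growth-cone protein, and Dpysl3) was 2930 and 2890 CPM in WT-1 and WT-2 and 3530 CPM in WT-3, against 2790 to 3410 CPM in het and 2910 to 3180 CPM in homo libraries. The summed level of 12 myeloid markers was 233 and 300 CPM in WT-1 and WT-2 and 186 CPM in WT-3, against 194 to 209 CPM in het and 190 to 233 CPM in homo libraries. Bone and cartilage genes (8 genes, mainly Col1a1 and Col1a2) gave 9970 and 7480 CPM in WT-1 and WT-2 and 5430 CPM in WT-3, against 4790 to 8310 CPM in het and 6760 to 9090 CPM in homo libraries. For myeloid and bone genes WT-3 was thus low among WT libraries, as for Lmbr1l, and for immature OSNs it was high. Other sums also set WT-3 apart. The sum of 17 genes that act on Wnt signalling was 2380, 2370 and 2190 CPM in WT-1, WT-2 and WT-3. That of the genes within 500 kb of Lmbr1l was 5510, 5210 and 6240 CPM. The part of myeloid cells, bone and immature OSNs in the Lmbr1l level was not tested. Y genes were counted in WT-1 and nearly absent in WT-2 and WT-3. Lmbr1l stood at 56.8 CPM in WT-1 and WT-2 and at 35.3 CPM in WT-3. The part of sex in its level was not tested.

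The place of Lmbr1l was described among the 500 tested genes nearest to it in average level, with mean CPM from 35.4 to 39.8. Between homo and WT mice the median absolute log2 fold change of these genes was 0.06, and 1 of them (0.2%) exceeded the 0.64 of Lmbr1l. Between het and WT mice the median was 0.07 and again 1 gene (0.2%) exceeded the 0.58 of Lmbr1l. Between homo and het mice 295 of the 500 genes (59.0%) had a larger difference than Lmbr1l, at a median of 0.07. The gene was thus near the edge of its abundance class in both contrasts with WT, which is how it was chosen, and in the middle of it between homo and het.

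The single gene that exceeded it, named after its values were seen, was Amy1, which encodes the amylase of salivary and nasal glands. Amy1 had 8565 counts in WT-1 and 117 to 230 in the other 9 libraries. It therefore rested on 1 library, unlike Lmbr1l, where WT-1 and WT-2 were both high.

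The spread of Lmbr1l within WT was also large for its level. The SD of log2 CPM over the WT libraries was 0.39, against a median of 0.13 over the 500 genes, and 7 genes (1.4%) had a larger one. The gap between WT-3 and the mean of WT-1 and WT-2 was 0.68 against a median of 0.14, and 6 genes (1.2%) had a larger one. Within het mice the SD was 0.10, with 333 genes (66.6%) above it, and within homo mice 0.14, with 205 genes (41.0%) above it. Lmbr1l was therefore unusually spread among WT libraries and ordinary within the other genotypes.

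**Figure D3:**
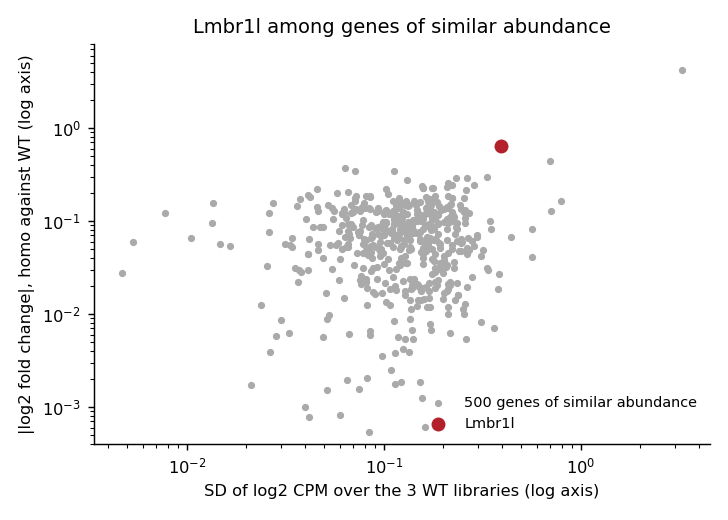
Absolute log2 fold change between homo and WT mice (vertical log axis) against the SD of log2 CPM over the 3 WT libraries (horizontal log axis) for Lmbr1l (red, 0.64 and 0.39) and the 500 genes nearest to it in level (grey). The grey point beyond Lmbr1l on both axes is Amy1, and most genes lie lower and to the left.

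The fit reads the spread over all genotypes together. The biological coefficient of variation that it gave Lmbr1l was 13.8%, close to the common value of 13.9% over all genes, and 39 of the 500 genes (7.8%) had a larger one. WT-1 and WT-2 differed by 0.00021 on the log2 scale, which is less than any of the 500 genes showed (median 0.13), and far less than the counting interval of either library.

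Genes near Lmbr1l were examined next. Within 500 kb, 43 genes had a row and 34 were tested, and none (0) passed an edgeR adjusted p of 0.05 in the contrast of homo with WT mice, in which 12 of 17197 genes (0.0698%) were called over the whole table. Without adjustment 1 of the 34 had a p under 0.05 (2.41% of all genes), the small nucleolar RNA Snora34, at 1 to 18 counts per library and higher in homo by 1.53 on the log2 scale (SE 0.71). Between het and WT 0 of the 34 were called (0.0% of all genes, and 3 genes over the table where the fit held only these genotypes and a replicate block), and Snora34 and 4930415O20Rik were the 2 with an unadjusted p under 0.05 (1.92% of all genes). Snora34 had a log2 difference of 1.63 (SE 0.74). That of 4930415O20Rik, at 7 to 27 counts per library, was -0.90 (SE 0.39), further from 0 than that of Lmbr1l. Between homo and het 0 were called (0.0756% of all genes) and 1 had an unadjusted p under 0.05 (2.48% of all genes), Fkbp11. DESeq2 called 0 of them in each contrast. Snora34, 4930415O20Rik and Fkbp11 were named after their values were seen.

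The median log2 fold change of the 34 neighbours was 0.01 in homo relative to WT (0.00012 over all genes tested), -0.03 in het relative to WT (-0.00088 over all genes) and 0.06 in homo relative to het (-0.00097 over all genes). On the side of lower coordinates the nearest tested genes were Dhh, a hedgehog ligand, at 5377 bp, Rhebl1, a small GTPase, at 9377 bp and Kmt2d, a histone methyltransferase, at 32713 bp. Dhh measured 3.49 ± 0.483 CPM in WT (SD, n = 3), 3.33 ± 0.337 in het (SD, n = 3) and 4.19 ± 0.278 in homo (SD, n = 4), a log2 difference of 0.26 between homo and WT (SE 0.18, edgeR adjusted p = 1). Rhebl1 measured 9.27 ± 0.796, 9.77 ± 0.468 and 8.90 ± 1.15 CPM in the same order, a log2 difference of -0.06 (SE 0.14, edgeR adjusted p = 1). Neither gene nearest to Lmbr1l on this side was lower in both het and homo beyond its error.

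From here on, levels without an SD are group means over 3 WT, 3 het and 4 homo libraries. Kmt2d stood at 142 CPM in WT, 156 CPM in het and 156 CPM in homo mice. On the side of higher coordinates, Tuba1b and Tuba1a, which encode α-tubulins, lie 13194 bp and 31606 bp away and the non-coding 4930578M01Rik lies 65117 bp away. Tuba1b stood at 302 ± 50.1 CPM in WT (SD, n = 3), 259 ± 27.0 in het (SD, n = 3) and 297 ± 33.8 in homo mice (SD, n = 4). Tuba1a stood at 2850, 2880 and 2850 CPM and 4930578M01Rik at 7.44, 7.85 and 8.31 CPM in WT, het and homo mice. None of these genes had the Lmbr1l order of a high WT level over equal het and homo levels beyond the spread of its libraries. Tuba1a and Tuba1b have close paralogs, so reads shared between copies make their single values uncertain. Within 1 Mb, 71 genes had a row, 58 were tested and 0 were called in any contrast.

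**Figure D4:**
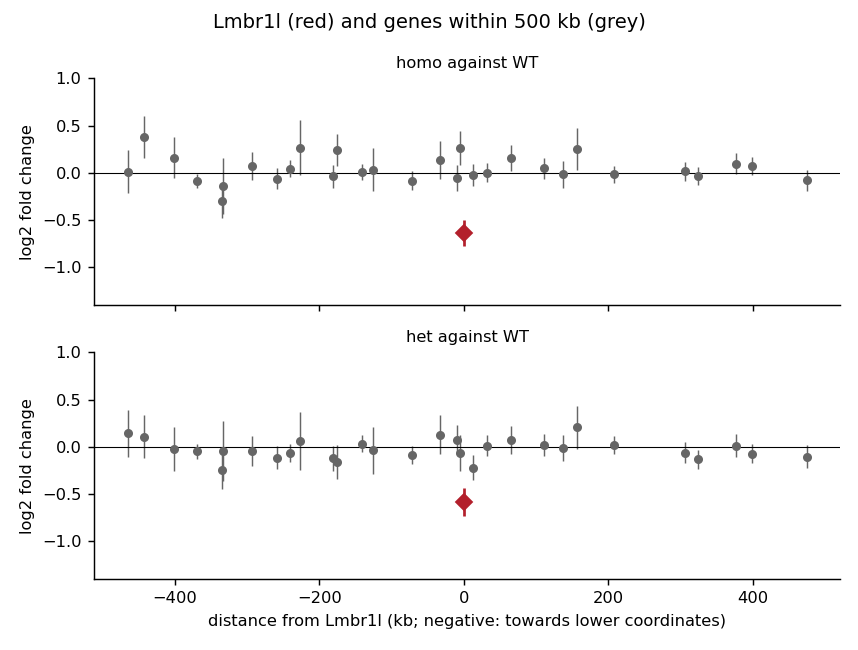
Log2 fold change (vertical axis, bars are SE) of Lmbr1l (red) and of the 30 tested genes within 500 kb with a mean CPM of at least 1 (grey), by distance from Lmbr1l in kb (horizontal axis), for homo against WT (top) and het against WT (bottom). Lmbr1l lies at -0.64 and -0.58, and the plotted neighbours lie nearer to 0. Tested genes of lower level are not plotted, among them Snora34 (1.53 and 1.63) and 4930415O20Rik (-0.22 and -0.90).

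The other members of the LMBR1-domain family did not pass the test either. They are Lmbr1, whose intron holds a limb enhancer of Shh, Lmbrd1, a lysosomal protein of cobalamin handling, and Lmbrd2. Per kb of merged exons, Lmbr1l stood at 11.4 ± 2.86 CPM in WT (SD, n = 3), 7.63 ± 0.531 in het (SD, n = 3) and 7.37 ± 0.714 in homo mice (SD, n = 4). Lmbrd1 stood at 14.2 ± 1.39, 14.9 ± 1.91 and 13.8 ± 1.18 CPM per kb in the same order, Lmbr1 at 4.52 ± 0.554, 5.03 ± 0.473 and 4.76 ± 0.264, and Lmbrd2 at 1.47 ± 0.581, 1.89 ± 0.991 and 1.46 ± 0.766. The merged exons of Lmbr1l hold 4338 bp and its protein-coding transcript 2304 bases, so a rank in the family may depend on the length used. Per kb of merged exons, Lmbr1l was second in level after Lmbrd1 in all 3 genotypes. Of these 3 relatives 0 had an edgeR adjusted p under 0.05 in any contrast, 0 had an unadjusted p under 0.05, and DESeq2 called 0.

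The genes that act with LMBR1L on Wnt signalling were level across genotypes within their spread. All 17 genes of the list were tested, 0 were called by edgeR or DESeq2 in any contrast, and 0 had an unadjusted p under 0.05. Their log2 fold changes ran from -0.16 (Znrf3, SE 0.10, a ligase that removes Frizzled receptors) to 0.08 between homo and WT, with a median of -0.02, and from -0.18 to 0.16 between het and WT, with a median of -0.03. Ubac2, of the complex that LMBR1L joins, stood at 28.7 ± 2.65 CPM in WT (SD, n = 3), 28.2 ± 0.733 in het (SD, n = 3) and 28.8 ± 3.5 in homo mice (SD, n = 4), and Ctnnb1, which encodes β-catenin, at 714, 731 and 728 CPM. No partner had a fold change of the size of that of Lmbr1l.

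The receptors that LMBR1L is known to act on stood at 29.1, 30.6 and 29.1 CPM (Fzd6) and at 111, 113 and 110 CPM (Lrp6) in WT, het and homo mice, and Lrp5, a relative of Lrp6, at 47.2, 41.6 and 44.7 CPM. The kinases of the β-catenin destruction complex, Gsk3b, Gsk3a and Csnk1a1, its scaffolds Axin1 and Apc, its ligase adaptor Btrc, the receptor ligase Rnf43 and the relay proteins Dvl1, Dvl2 and Dvl3 made up the rest of the list and lay within the same range of fold changes. Of 15 Wnt target genes 14 were tested, 0 were called by edgeR or DESeq2 and 0 had an unadjusted p under 0.05, with medians of 0.02 between homo and WT and -0.11 between het and WT. Ccnd1, a cyclin of G1, stood at 186 ± 4.78 CPM in WT (SD, n = 3), 171 ± 18.6 in het (SD, n = 3) and 174 ± 6.41 in homo mice (SD, n = 4), and Tnfrsf19, a receptor of the TNF family, at 85.9, 88.4 and 89.7 CPM. Axin2, a common readout of Wnt signalling, is outside the naming rule and stood at 23.9, 21.3 and 23.2 CPM.

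Of 18 genes of ER-associated degradation, the route that LMBR1L uses, 0 were called by edgeR or DESeq2 in any contrast. The list median was 0.04 for homo against WT and 0.02 for het against WT. The chaperone Hspa5 stood at 625, 605 and 638 CPM and the ATPase Vcp at 575, 587 and 591 CPM in WT, het and homo mice. Derl3, a derlin of secretory cells, was the 1 member with an unadjusted p under 0.05, between homo and het (2.48% of all genes). Its log2 difference there was 0.56 (SE 0.19, edgeR adjusted p = 0.999), at 9.34, 8.18 and 12.1 CPM in WT, het and homo mice.

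Lipocalins, the proposed ligands, differed in another way from Lmbr1l. Of 16 genes 14 had a row and 10 were tested. In the fit of all 10 libraries without a block edgeR called 0 in any contrast. Between homo and WT the list median was 0.38 (1.02 without WT-2 and 0.18 without WT-3), and Lcn3, Obp2a and Obp2b were the 3 of 10 with an unadjusted p under 0.05 (2.41% of all genes). There were 0 for het relative to WT (1.92% of all genes) and 5 between homo and het (2.48% of all genes). Lcn3 stood at 317 ± 78.3 CPM in WT (SD, n = 3), 251 ± 14.8 in het (SD, n = 3) and 802 ± 414 in homo mice (SD, n = 4), a log2 difference of 1.34 between homo and WT (SE 0.37, edgeR adjusted p = 1). Obp2a stood at 1120 ± 408, 1390 ± 543 and 3190 ± 1480 CPM, and Obp1a, with the highest CPM of the list, at 3770, 2900 and 4060 CPM.

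The summed lipocalin level was 7620, 9690 and 5200 CPM in WT, 7300, 8790 and 4320 CPM in het and 16300, 16700, 9390 and 7510 CPM in homo libraries. It was high in homo-1 and homo-2, lower in homo-3 and homo-4, and WT and het libraries overlapped. In homo-4, where Lmbr1l was highest among het and homo libraries, and in WT-3, the lowest WT library, the lipocalin total was the lowest of its genotype. With the replicate number as a block edgeR called 2 lipocalins between homo and WT and 3 between homo and het, and DESeq2 called 1 between homo and het, although the homo numbers did not pair with the others. The part of lipocalins in the Lmbr1l level was not tested.

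**Figure D5:**
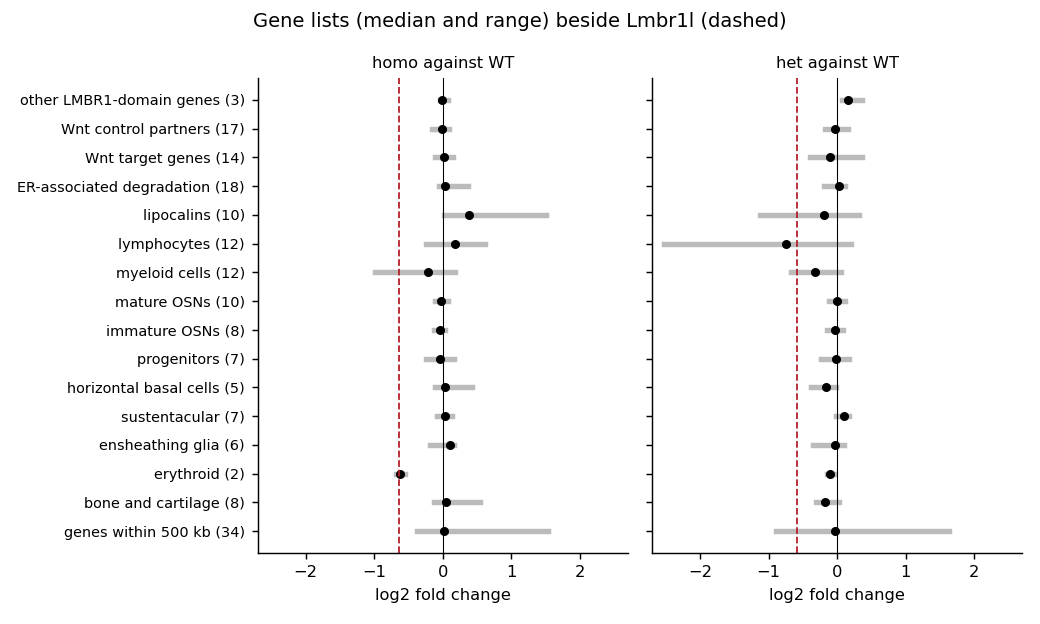
Median (point) and range (grey bar) of the log2 fold change (horizontal axis) over the tested members of each gene list (vertical axis, number of genes in brackets), for homo against WT and het against WT. The dashed red line is Lmbr1l (-0.64 and -0.58), most medians lie near 0, and those of lymphocytes in het (-0.74) and of the 2 erythroid genes in homo (-0.62) are the exceptions near the line. The erythroid median went from -0.95 without homo-1 to -0.29 without WT-1.

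LMBR1L is best known in lymphocytes, and lymphocyte transcripts were scarce in this tissue. Of 18 markers 12 were tested, and the summed level of all 18 was 12.6, 18.9 and 14.8 CPM in WT, 10.5, 9.66 and 12.8 CPM in het and 19.9, 23.1, 14.4 and 12.9 CPM in homo libraries. Het libraries were on the low side, homo-1 and homo-2 were high, and homo-3 and homo-4 lay within the WT range, whereas Lmbr1l was low in het and homo libraries alike. None of the 18 markers was at 0 in all libraries.

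For lymphocytes 0 of the 12 markers were called in any contrast by edgeR or DESeq2. Between het and WT 4 of the 12 had an unadjusted p under 0.05, against 1.92% of all genes, all lower in het (Cd3d, Cd2 and Cd79b among them), with a list median of -0.74 (-0.40 without WT-2). Cd3d, a chain of the T cell receptor complex, stood at 0.509 ± 0.300 CPM in WT (SD, n = 3), 0.0836 ± 0.0394 in het (SD, n = 3) and 0.512 ± 0.118 in homo mice (SD, n = 4). Its log2 difference was -2.52 between het and WT (SE 0.69, edgeR adjusted p = 1). Between homo and WT 0 of the 12 had an unadjusted p under 0.05, against 2.41% of all genes, with a median of 0.18 that went from 0.01 without homo-2 to 0.51 without WT-2 (0.04 without WT-1, 0.05 without WT-3). Between homo and het 6 of the 12 were higher in homo without adjustment, against 2.48% of all genes. The members with the highest level, Gzma and Lck, stood at 2.58, 2.17 and 2.18 CPM and at 1.82, 1.46 and 2.18 CPM in WT, het and homo mice, and Ms4a1 had a mean of 1.03 CPM in WT, 0.767 CPM in het and 1.6 CPM in homo mice. The genes Cd3d, Cd2 and Cd79b were named after their values were seen.

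Myeloid markers were mostly lower in het and homo than in WT mice. Between homo and het mice 8 were higher in homo and 4 were lower, S100a8 and S100a9 among the lower. All 12 were tested and 0 were called in any contrast by edgeR or DESeq2. Between homo and WT 9 were lower and 3 higher, and between het and WT 10 were lower and 2 higher. The list median was -0.22 for homo against WT and -0.32 for het against WT, and without WT-2, the WT library with the highest myeloid total, it was -0.01 and -0.14. At an unadjusted p under 0.05 there were 2 members (S100a8 and S100a9) lower in homo, against 2.41% of all genes, and 3 members (Itgam, C1qb and S100a8) lower in het, against 1.92%. S100a8, which with S100a9 makes up calprotectin of neutrophils, stood at 7.48 ± 1.31 CPM in WT (SD, n = 3), 4.79 ± 1.63 in het (SD, n = 3) and 3.75 ± 0.662 in homo mice (SD, n = 4). Its log2 difference was -0.99 between homo and WT (SE 0.22, edgeR adjusted p = 0.414) and -0.64 between het and WT (SE 0.24, edgeR adjusted p = 1). S100a9 had -0.61 between homo and WT (SE 0.22, edgeR adjusted p = 1).

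Itgam, the integrin chain of monocytes and neutrophils, had a log2 difference of -0.67 between het and WT (SE 0.18, edgeR adjusted p = 1), and C1qb, a complement chain made by macrophages, had -0.36 (SE 0.13, edgeR adjusted p = 1). The general markers Lyz2 and Csf1r stood at 102, 84.3 and 87.3 CPM and at 37.6, 35.4 and 40.0 CPM. The summed level of the 12 markers was 233, 300 and 186 CPM in WT, 194 to 209 CPM in het and 190 to 233 CPM in homo libraries, and it overlapped between genotypes. The part of myeloid cells in the Lmbr1l level was not tested. Itgam and S100a9 were named after their values were seen.

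The main cell types of the epithelium were mostly at like levels in the 3 genotypes. Of the markers of mature OSNs (10), immature OSNs (8), progenitors (7), horizontal basal cells (5), sustentacular cells (7) and ensheathing glia (6), all were tested and 0 were called in any contrast by edgeR or DESeq2. At an unadjusted p under 0.05 there were 0 between homo and WT (2.41% of all genes) and 1 (Top2a) between het and WT (1.92% of all genes). Between homo and het there were 2 (2.48% of all genes), both among the 5 markers of horizontal basal cells. All 5 of these markers were lower in het than in WT mice. The list medians of these cell types lay between -0.04 and 0.10 for homo against WT and between -0.17 and 0.10 for het against WT. Omp, the marker protein of mature OSNs, stood at 4480, 4120 and 4130 CPM, and Gnal, their G protein, at 1670, 1760 and 1660 CPM. Rtp2, which helps receptors to the membrane, stood at 465, 455 and 431 CPM in WT, het and homo mice.

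In immature OSNs Dpysl3, Stmn1 and Stmn2 stood at 694, 633 and 510 CPM in WT and at 706, 590 and 476 CPM in homo mice. The proliferation markers Mki67 and Top2a stood at 98.4 and 93.0 CPM in WT and at 111 and 102 CPM in homo mice. In horizontal basal cells Krt5 stood at 69.0 CPM in WT, 65.6 CPM in het and 73.7 CPM in homo mice. Krt15 stood at 11.3, 8.8 and 15.3 CPM and Krt14 at 30, 26.7 and 27.7 CPM in the same order. None of these lists had a median difference from WT near that of Lmbr1l.

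Of supporting cells, Cyp2a5, Cyp2g1 and Cyp1a2 stood at 5950, 2650 and 360 CPM in WT and at 6070, 2780 and 393 CPM in homo mice, and Fabp7 of glia at 183 CPM in WT and 174 CPM in homo mice. Tissue from outside the epithelium was present, with Col1a2 and Col1a1 at 4220 and 2880 CPM in WT and 4380 and 2850 CPM in homo mice and Acan at 13.0 and 18.9 CPM. Of 8 bone and cartilage genes 0 were called in any contrast, and 1 had an unadjusted p under 0.05, between homo and het (2.48% of all genes). Of 6 erythroid genes the 4 globin genes were listed at 0 in every library, and Alas2, of heme synthesis, stood at 19.8 CPM in WT and 13.5 CPM in homo mice. Of the 2 erythroid genes tested 0 were called, and 1 had an unadjusted p under 0.05, between homo and WT (2.41% of all genes). The erythroid total was 37.1, 14.7 and 21.0 CPM in WT-1, WT-2 and WT-3. The part of erythroid cells in the Lmbr1l level was not tested.

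The genes whose pattern over the 10 libraries was most like that of Lmbr1l were found by Pearson's r of log2 CPM among 11260 genes with a mean of at least 10 CPM. The values describe these libraries, which the genes share, and carry no test. Srd5a3, a reductase of dolichol synthesis, had r = 0.90, C1qb 0.84, Mcu, the pore of the mitochondrial calcium uniporter, 0.84, Ifngr2, a chain of the interferon-γ receptor, 0.84 and Oxsm, of mitochondrial fatty acid synthesis, 0.83. The lowest were Sdf4, a calcium-binding protein of the Golgi, at -0.95, Nono, a nuclear RNA-binding protein, at -0.91 and Alcam, an adhesion molecule, at -0.88. In all, 37 of the 11260 genes had an absolute r of at least 0.8, 11 of them positive and 26 negative.

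Srd5a3 stood at 16.1, 16.0 and 12.3 CPM in WT, at 12.6, 13.2 and 13.0 CPM in het and at 12.9, 11.8, 12.8 and 12.3 CPM in homo libraries. WT-1 and WT-2 were above the rest, as for Lmbr1l, with a smaller gap, and the order of the other 8 libraries differed from that of Lmbr1l (Spearman's rho 0.43 over the 10 libraries). Ifngr2 stood at 50.4, 47.1 and 34.6 CPM in WT, at 39.0, 34.4 and 37.1 CPM in het and at 39.2, 33.6, 40.0 and 36.3 CPM in homo libraries. Sdf4 stood at 216, 216 and 249 CPM in WT, at 246, 245 and 254 CPM in het and at 261, 258, 264 and 246 CPM in homo libraries.

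For Sdf4 the same 2 WT libraries were thus the lowest of the 10. In WT-3, Srd5a3 reached 76.9%, Ifngr2 71.1%, Oxsm 70.5% and C1qb 79.9% of the mean of WT-1 and WT-2, against 62.2% for Lmbr1l. Sdf4 reached 115% and Alcam 123%. The genes were picked by r with Lmbr1l over these same libraries, so a like or opposite place of WT-3 follows from that choice. None of these 8 genes had an edgeR adjusted p under 0.05 in any contrast.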

How the data were processed

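Whole MOE RNA was sequenced by the authors from directional libraries made after poly(A) bead selection. Reads were aligned to mm10 with HISAT2 2.1.0 and counted per gene with featureCounts of Subread 1.6.2, and the submitters' processing notes also name Trimmomatic 0.36 and DESeq2 1.20.0. The annotation, the strand setting and the handling of reads with several alignments are not given in the sources used here. The deposited values used were raw counts per gene. A deposited normalized signal table, in which the authors divided counts by size factors, was used for 1 alternative and for the values named as theirs.

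Groups and replicate numbers came from the sample titles. Counts were fitted in R 4.3.3 with edgeR 4.0.16 (filterByExpr with a minimum count of 10 and a minimum total of 15, TMM, robust quasi-likelihood F test, two-sided) to the 10 libraries together, with a term for genotype and no other. The genes tested held 99.97% of the counts. Benjamini-Hochberg adjustment ran over the 17197 genes tested, and a gene was called at an adjusted p under 0.05. Log2 CPM used a prior count of 2. DESeq2 1.42.0 and limma 3.58.1 (on log2 of the normalized value plus 1) were alternatives. The fit was tested on simulated data.

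No 2 libraries of a genotype were alike to sampling noise (chi-square divided by its degrees of freedom, 14.5 to 49.3). Deviations of WT and het libraries with the same number correlated (r 0.326, 0.285 and 0.235), so these numbers were taken to pair the libraries, as a check from the data and not from the labels. Those of WT and homo with the same number did not (-0.0995 to -0.0122), nor did those of het and homo (-0.148 to 0.159). Between homo and the other genotypes, libraries with different numbers ran from -0.391 (het-3 and homo-2) to 0.269 (WT-3 and homo-4).

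The gene, the lists and the tests were chosen with earlier results of these data known. By rule the text names Lmbr1l, its family, the Wnt partners, the 3 nearest tested genes on each side, the 2 most abundant members of each other list with the member of smallest p between homo and WT, and the 5 most and 3 least alike genes. Some genes that the rule names are not reported here. Positions are from GENCODE, whose symbols matched 95.6% of the rows. Coordinates are 1-based.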

Additional observations from a re-analysis of the deposited data

Results flagged for a closer look

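Of 38 values checked in the homo libraries, a group of 4, 1 stood out. The summed level of the ER-associated degradation genes was 2670 CPM in homo-4 against 2900, 2920 and 2920 CPM in the other homo libraries, a gap of 0.913 of the range. Chance flags about 1 in 20 groups. Lmbr1l itself did not stand out in this way among the homo libraries, and groups of 3 were not checked, so that WT-3 could not be.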

How the results depend on the processing

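With 1 library left out a high WT library, WT-1 or WT-2, always remained, so the direction of such fits was set beforehand. Under 11 other settings for homo, 12 for het and 10 fits that left out 1 library, Lmbr1l kept its direction in both WT contrasts. Its log2 fold change ranged from -0.83 to -0.53 between homo and WT and from -0.78 to -0.48 between het and WT when 1 library was left out, and from -0.68 to -0.61 and from -0.59 to -0.55 under the other settings. Between homo and het it ran from -0.12 to -0.00094. The replicate block gave -0.68 and -0.56 for the contrasts with WT, and -0.56 for het in a fit of WT and het libraries only, an alternative added after the data were seen. By p its rank between het and WT went from 1 to 812 in that fit with the block, and to 59 without WT-2. With the WT and het libraries only and no block the rank was 3.

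The replicate block raised the genes called between homo and WT to 19, between homo and het to 24 and, in WT and het alone, between het and WT to 3. With the block 2 lipocalins were called between homo and WT, and 3 lipocalins and 1 gene of horizontal basal cells between homo and het. DESeq2 called 1 lipocalin between homo and het, and leaving out 1 library gave 0 to 1. With the 200 nearest genes the share with a larger difference than Lmbr1l was 0.5% in both contrasts with WT, and that with a larger biological coefficient of variation 5%. Of the list medians, that of Wnt target genes between homo and WT was -0.05 without WT-3, and that of ER-associated degradation between het and WT -0.02 without het-3. Over all genes tested 63 had an absolute r of at least 0.8. Of 2662 values under alternatives 2635 kept their direction and side or stayed within the spread, 26 moved and 1 was stronger. Many of these values are counts of called list members that stayed at 0. Some of the list medians that moved changed sign, such as that of the LMBR1-domain family between homo and WT (-0.01, and 0.16 without WT-2). With at least 673 counts of Lmbr1l per library, counting error was small beside the spread within WT, and the few libraries per genotype limit the precision.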
